A study of Mus musculus with 12 samples.

Results

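The BCL2 family was followed in RNA-seq of hematopoietic stem cells (HSCs) that lack or keep *Ythdc1*, which encodes a nuclear reader of the RNA mark m6A. The 10 genes described are *Bcl2*, *Bcl2l1*, *Mcl1*, *Bax*, *Bak1*, *Bok*, *Bcl2l11*, *Bbc3*, *Bmf* and *Pmaip1*, survival and death members of the family, each found by its identifier among the 55335 genes of the count table (positions are those of mm10). Polyadenylated RNA of HSCs sorted from bone marrow (strain label C57B6) was sequenced from 6 numbered samples, 3 of each genotype, with 2 libraries per sample. *Ythdc1*Δ/Δ samples (KO176, KO177 and KO209) came from *Ythdc1* fl/fl Mx1-Cre mice, and *Ythdc1*+/+ samples (WT178, WT180 and WT207) from *Ythdc1*+/+ Mx1-Cre mice. Both genotypes therefore carried Mx1-Cre, a recombinase driven by an interferon-inducible promoter that also acts outside HSCs, and both received 5 injections of pIpC, which triggers interferon. The donor mice were 8 weeks old. Whether a sample number stands for 1 mouse is not in the labels, so the p-values below measure the spread between these samples, which may in part be technical.

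The BCL2 family sets whether a cell opens the outer membrane of its mitochondria, the step that commits it to intrinsic apoptosis. Survival members (BCL2, BCL-XL from *Bcl2l1*, and MCL1) bind and restrain the effectors BAX and BAK, which form the pores, while BH3-only members (BIM from *Bcl2l11*, PUMA from *Bbc3*, BMF and NOXA from *Pmaip1*) are induced or released by stress and occupy the survival members or engage the effectors. In HSCs, MCL1 is known to be required for survival, and PUMA is known as a mediator of cell death after DNA damage.

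The 6 *Ythdc1*Δ/Δ libraries held 22481622 to 24118972 counted read pairs and the 6 *Ythdc1*+/+ libraries 20809936 to 24563170. *Ythdc1* itself had 56.8, 69.6 and 69.6 CPM (read counts scaled to library size, the per-million unit used throughout) in the *Ythdc1*Δ/Δ samples KO176, KO177 and KO209, and 76.0, 72.6 and 92.5 CPM in the *Ythdc1*+/+ samples WT178, WT180 and WT207. Each *Ythdc1*Δ/Δ sample lay below each *Ythdc1*+/+ sample, while single libraries overlapped. The log2 fold change of *Ythdc1* was -0.30 (edgeR unadjusted p = 0.0487, adjusted p = 0.521). Counts per gene do not separate the exons of the deleted segment from the others. The extent of the deletion was therefore not tested, and these counts are no check of the labels. Of 12 HSC markers, all detected, 11 had lower values in *Ythdc1*Δ/Δ, with a summed level of 808 to 906 CPM against 998 to 1164 CPM. Markers of some other cells had higher values in *Ythdc1*Δ/Δ, for 10 of 10 granulocyte, 8 of 8 macrophage, 8 of 10 B lineage and 7 of 7 tested stroma and endothelium genes, 3 of which edgeR called. Their sums were 12740 to 24353 against 10718 to 14033 CPM for granulocytes, 107 to 218 against 89.5 to 128 CPM for macrophages, 435 to 720 against 306 to 406 CPM for B lineage and 133 to 138 against 99.0 to 110 CPM for stroma and endothelium. For T and NK cells, 1 of 5 tested genes was higher, with sums of 475 to 707 against 586 to 741 CPM. Nearly all of these sums was *Nkg7*, without which they were 5.56 to 5.80 against 5.62 to 6.11 CPM and overlapped. Erythroid and megakaryocyte genes were mixed (4 of 7 tested higher), with sums of 215 to 353 against 323 to 473 CPM. The B lineage separation rested on *Jchain*, the gene of the immunoglobulin J chain, without which the sums were 237 to 316 against 271 to 314 CPM and overlapped. The granulocyte sums overlapped, but without *Mpo* they were 9595 to 13439 against 7514 to 9258 CPM and stayed apart. The macrophage sums also overlapped, but without *Csf1r* they were 88.1 to 120 against 74.7 to 79.5 CPM and stayed apart. Leaving out any other gene of these lists left an overlap. The HSC sums overlapped without *Kit* and without *Ly6a*, and the stroma and endothelium sums stayed apart without any 1 gene. The cells had been enriched on beads for KIT and then sorted, with CD11b, Gr1, CD4, CD8, Ter119 and B220 as the lineage markers, a gate that would remove mature granulocytes, B cells and erythroid cells. The part of these cells in the values below was not tested, and in bulk RNA fewer cells of a type and less RNA per cell cannot be told apart.

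None of the 10 members passed the test of genotype after adjustment over all genes, at a background of 25 of 18234 tested genes called (0.137%). In edgeR's quasi-likelihood test on the summed samples, 7 members had a higher and 3 a lower mean in *Ythdc1*Δ/Δ, and the median of their log2 fold changes was 0.05, against -0.0062 over all tested genes. The smallest adjusted p among members was 0.357. At an unadjusted p under 0.05 there was 1 higher member, *Bok* (background 4.28% of genes), and 1 lower member, *Bbc3* (background 5.2%). These were also the 2 of 10 members whose samples did not overlap between the genotypes, which 16.3% of all tested genes did. DESeq2 called 0 members, at a background of 1.19%.

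**Figure D1:**
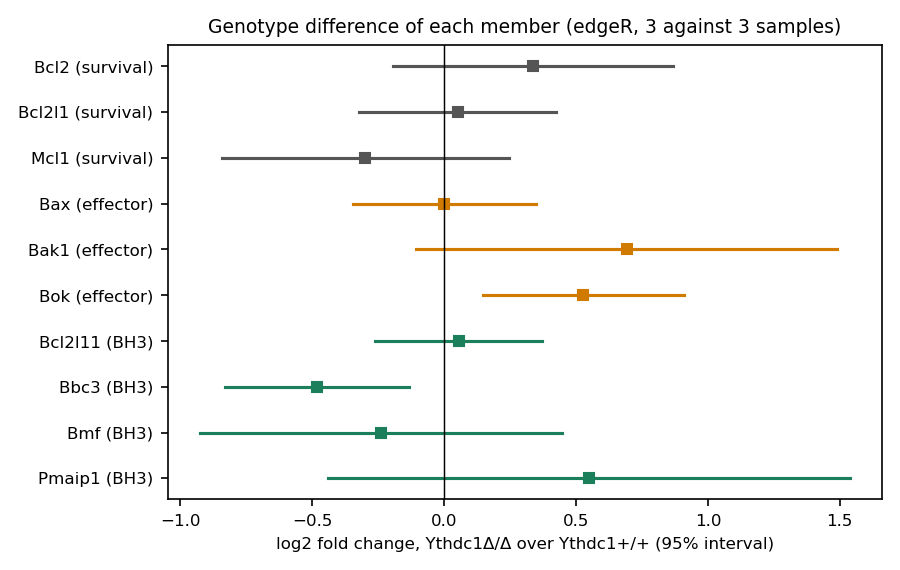
Log2 fold change of each member, *Ythdc1*Δ/Δ over *Ythdc1*+/+ (x axis), with its 95% interval from edgeR on 3 against 3 summed samples, coloured by role. The intervals of *Bok* (0.15 to 0.91) and *Bbc3* (-0.83 to -0.13) lie on 1 side of 0 before adjustment for multiple testing, and those of the other 8 members cross it.

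Among the survival members, *Bcl2* was the most abundant in read counts, and the size of its genotype difference depended on the samples compared. *Bcl2* (chromosome 1, 106538178 to 106714274 of mm10, minus strand) had 194, 174 and 103 CPM in *Ythdc1*Δ/Δ samples KO176, KO177 and KO209, and 139, 134 and 99.7 CPM in *Ythdc1*+/+ samples WT178, WT180 and WT207. The highest-numbered sample was the lowest of its genotype on both sides, and the groups overlapped. The log2 fold change was 0.34 (SE 0.23, 95% interval -0.19 to 0.87, edgeR adjusted p = 0.689). Within the samples KO176 to WT180 it was 0.42 (95% interval 0.15 to 0.70, edgeR adjusted p = 0.271). Between samples KO209 and WT207 alone, with 1 sample a side and no test, the difference was 0.05. With a term for the range of numbers, low or high, the log2 fold change was 0.30 with a smaller standard error of 0.11 (95% interval 0.06 to 0.55, edgeR adjusted p = 0.247). The high range holds 1 sample of each genotype. What the numbers stand for is not given in the labels.

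*Bcl2l1*, the gene of BCL-XL (chromosome 2, 152780668 to 152831728), was also lowest in the highest-numbered sample of each genotype. It had 78.1, 62.0 and 49.2 CPM in *Ythdc1*Δ/Δ samples KO176, KO177 and KO209, and 68.2, 60.5 and 53.9 CPM in *Ythdc1*+/+ samples WT178, WT180 and WT207. The *Ythdc1*Δ/Δ values spanned those of *Ythdc1*+/+, and the log2 fold change was 0.05 (SE 0.17, 95% interval -0.32 to 0.42, edgeR adjusted p = 0.945).

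*Mcl1*, which encodes a short-lived survival protein (chromosome 3, 95658788 to 95663176), differed more between libraries of 1 sample than between genotypes. The *Ythdc1*Δ/Δ libraries 1 and 2 had 20.4 and 24.5 CPM in sample KO176, 53.3 and 19.5 CPM in sample KO177, and 20.9 and 20.8 CPM in sample KO209. The *Ythdc1*+/+ libraries 1 and 2 had 32.5 and 19.3 CPM in sample WT178, 46.4 and 19.3 CPM in sample WT180, and 54.8 and 25.02 CPM in sample WT207. Library 1 was above library 2 by 0.75 to 1.45 on the log2 scale in samples KO177, WT178, WT180 and WT207, while this difference was -0.26 in KO176 and 0.0085 in KO209. The SD between libraries of a sample was 0.68 on the log2 scale, larger than in 99.2% of 2503 genes within 1.5-fold of its level, whose median was 0.12. The counts behind these values were 407 to 1272 per library. From the summed samples it was -0.30 on the log2 scale (SE 0.24, 95% interval -0.84 to 0.25, edgeR adjusted p = 0.729), and it was -0.50 from library 1 alone and 0.02 from library 2 alone. Leaving out each sample in turn gave -0.61 (without KO177, which holds the highest *Ythdc1*Δ/Δ library) to -0.14. The difference between library 1 and library 2 preparations is not described in the labels.

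**Figure D2:**
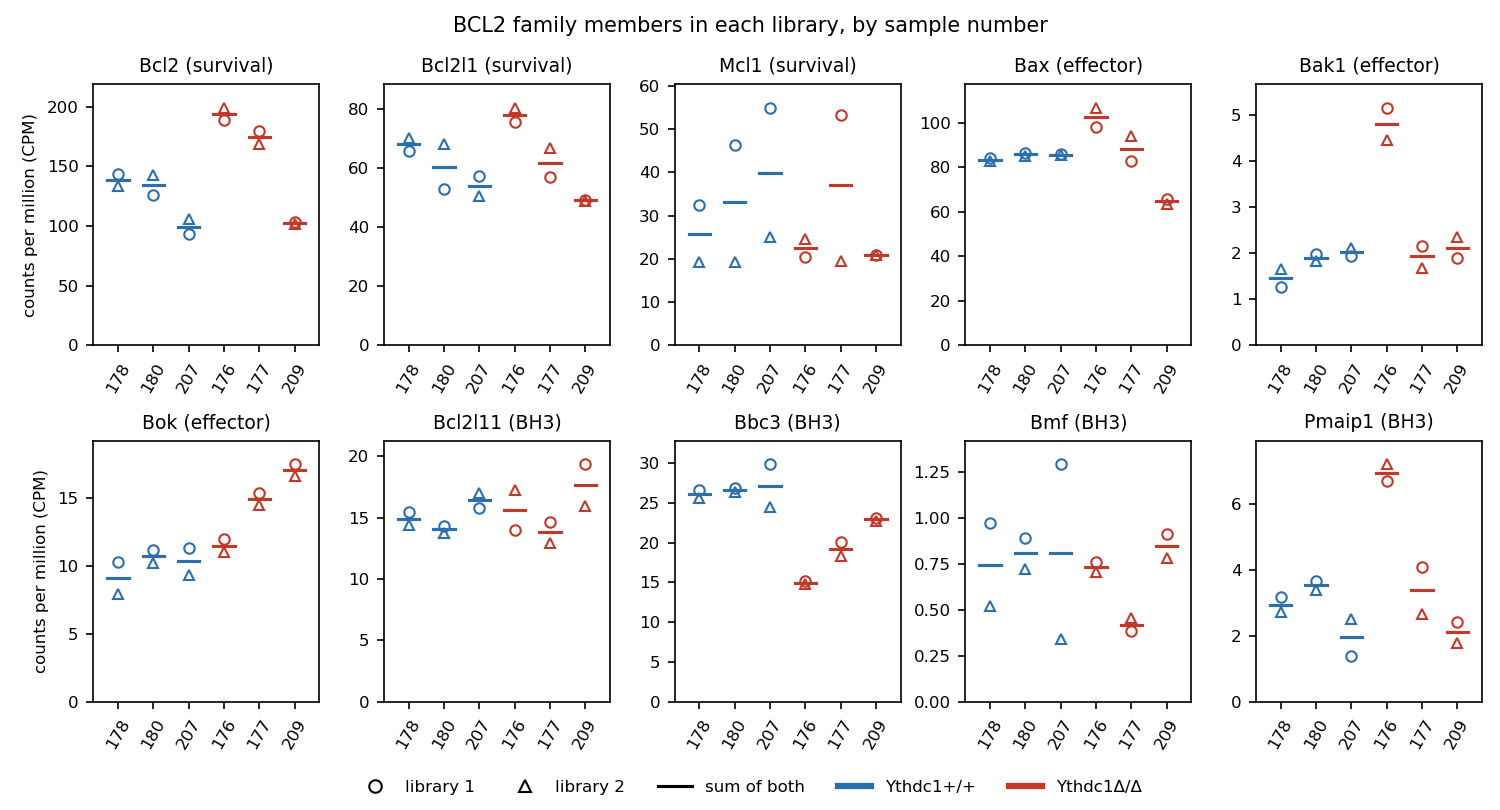
CPM (y axis, from 0, own scale per gene) of each member in all 12 libraries, by sample number (x axis, *Ythdc1*+/+ in blue, *Ythdc1*Δ/Δ in red), with circles for library 1, triangles for library 2 and lines for the CPM of both together. *Bbc3* libraries of *Ythdc1*Δ/Δ reach 23.2 CPM at most and those of *Ythdc1*+/+ start at 24.5 CPM, while *Mcl1* spreads between libraries of the same sample.

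Among the effectors, *Bax* had an equal mean in both genotypes but a wider spread in *Ythdc1*Δ/Δ. The wider spread was not particular to *Bax*, since the SD of CPM was larger in *Ythdc1*Δ/Δ for every member. *Bax* (chromosome 7, 45461697 to 45466898) encodes the pore-former that moves from the cytosol to mitochondria, and had 102, 88.3 and 64.7 CPM in *Ythdc1*Δ/Δ samples KO176, KO177 and KO209. The *Ythdc1*+/+ samples WT178, WT180 and WT207 had 83.4, 85.9 and 85.7 CPM, inside that range. Its difference on the log2 scale was 0.0014 (SE 0.16, 95% interval -0.35 to 0.35, edgeR adjusted p = 0.998), an interval that leaves room for a 1.27-fold change in either direction. Of the exon bases of *Bax*, 192 (12.2%) are shared with *Gm45808* on the same strand, which had at most 2 counts in any library.

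*Bok*, which encodes an effector regulated differently from BAX and BAK and less dependent on the survival members, had the higher values in *Ythdc1*Δ/Δ. *Bok* (chromosome 1, 93685660 to 93695764) had 11.5, 14.9 and 17.03 CPM in *Ythdc1*Δ/Δ samples KO176, KO177 and KO209, and 9.08, 10.7 and 10.3 CPM in *Ythdc1*+/+ samples WT178, WT180 and WT207. Each *Ythdc1*Δ/Δ sample lay above each *Ythdc1*+/+ sample, but single libraries overlapped, with 10.99 CPM as the lowest *Ythdc1*Δ/Δ and 11.3 CPM as the highest *Ythdc1*+/+ library. The log2 fold change was 0.53 (SE 0.17, 95% interval 0.15 to 0.91), or 1.44-fold, and did not pass the adjustment (edgeR adjusted p = 0.357). Treating the 12 libraries as separate samples gave an adjusted p of 0.0389 in edgeR, at a background of 4.83% of genes called (4.61% with the library digit as a block), with the 2 libraries of a sample then counted as independent. Leaving out each sample in turn gave 0.39 to 0.68.

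*Bak1* values rested on 1 sample, and on a gene whose exons are in part shared. *Bak1* encodes BAK, the effector resident in the mitochondrial outer membrane, and had 4.80, 1.93 and 2.12 CPM in *Ythdc1*Δ/Δ samples KO176, KO177 and KO209 and 1.46, 1.91 and 2.03 CPM in *Ythdc1*+/+ samples WT178, WT180 and WT207. Sample KO176 was high in both of its libraries (5.15 and 4.46 CPM), and the other *Ythdc1*Δ/Δ samples lay within or just above the *Ythdc1*+/+ range. Its log2 fold change was 0.69 (SE 0.36, 95% interval -0.10 to 1.49, edgeR adjusted p = 0.582), and 0.17 without sample KO176. Sample KO176 also had the highest granulocyte sum, 24353 CPM against 10718 to 14778 CPM in the other samples. The excess lay in *Mpo*, at 10914 CPM in KO176, and in other genes of early granules, and KO176 was the highest sample for 6 of the 10 granulocyte markers, while KO209 was the highest for *Ngp*, *S100a8*, *S100a9* and *Chil3*. KO176 was also the highest for 6 of 8 macrophage markers, and their part in the *Bak1* value was not tested.

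*Bak1* lies on the minus strand of chromosome 17 (27019810 to 27029009 of mm10), and 614 of its 2407 exon bases (25.5%) are also exon of 2 genes on the plus strand. ENSMUSG00000048731.15 shares 18.2% and ENSMUSG00000117819.1 shares 7.35% of the exon bases of *Bak1*. Counted from the start of *Bak1*, its 7 merged exons share 434 of 599 bases in exon 1, all 101 in exon 2 and 79 of 144 in exon 4, and 0 in the others, including the last exon of 1226 bases. The authors' counting took no account of strand, so reads in the shared bases cannot be told apart, and under the counter's default a read pair that fits both genes goes to neither. ENSMUSG00000048731.15 had 1.17 to 2.12 CPM in the *Ythdc1*Δ/Δ libraries and 1.59 to 3.85 CPM in the *Ythdc1*+/+ libraries, with a log2 fold change of -0.57 (edgeR adjusted p = 0.545), opposite in sign to *Bak1*. ENSMUSG00000117819.1 had at most 2 counts in any library. *Bcl2* shares 558 exon bases (6.09%) with *D630008O14Rik* on the opposite strand, which had 4 to 23 counts, and the other 7 members share none.

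**Figure D3:**
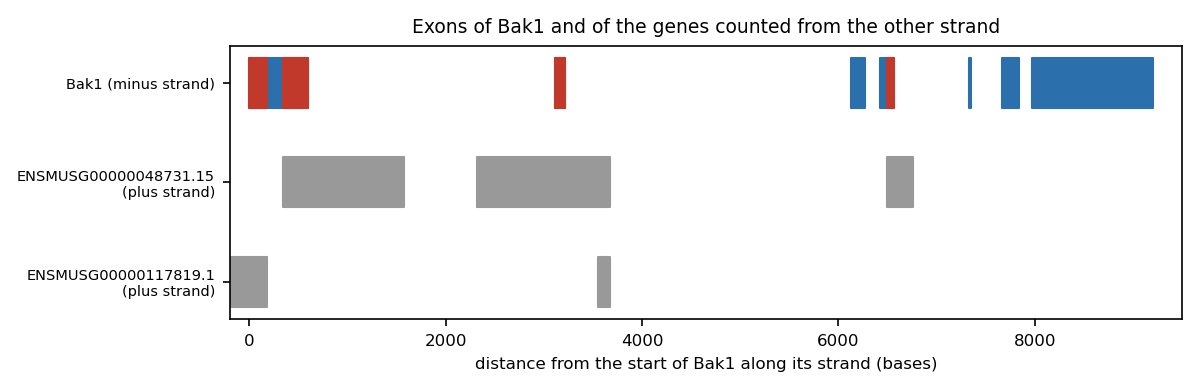
Exons of *Bak1* and of 2 plus-strand genes by distance in bases from the start of *Bak1* along its strand (x axis), with the shared bases of *Bak1* in red and its other exon bases in blue. The shared bases (614 of 2407) lie in exons 1, 2 and 4, and the last exon holds none.

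Among the BH3-only members, *Bbc3* had the lower values in *Ythdc1*Δ/Δ. *Bbc3*, the gene of PUMA and a target of p53 (chromosome 7, 16308393 to 16318205), had 14.98, 19.2 and 23.0 CPM in *Ythdc1*Δ/Δ samples KO176, KO177 and KO209, and 26.1, 26.6 and 27.2 CPM in *Ythdc1*+/+ samples WT178, WT180 and WT207. All 6 *Ythdc1*Δ/Δ libraries (14.8 to 23.2 CPM) lay below all 6 *Ythdc1*+/+ libraries (24.5 to 29.8 CPM), and 1.9% of tested genes did the same in that direction. The *Ythdc1*+/+ samples were close together (SD 0.527 CPM), and the *Ythdc1*Δ/Δ samples were spread over a wider range. Its log2 fold change was -0.48 (SE 0.16, 95% interval -0.83 to -0.13), or 0.717-fold, and did not pass the adjustment (edgeR adjusted p = 0.359). With the 12 libraries as separate samples the edgeR adjusted p was 0.0354. Leaving out each sample in turn gave -0.64 to -0.33, the smallest difference being without sample KO176, the lowest for *Bbc3*.

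*Bcl2l11*, the gene of BIM (chromosome 2, 128126038 to 128162547), had close means in the genotypes. It had 15.7, 13.8 and 17.7 CPM in *Ythdc1*Δ/Δ samples KO176, KO177 and KO209, and 14.9, 14.1 and 16.4 CPM in *Ythdc1*+/+ samples WT178, WT180 and WT207. The 95% interval of its log2 fold change of 0.06 ran from -0.26 to 0.37 (SE 0.14, edgeR adjusted p = 0.926).

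*Pmaip1*, the gene of NOXA (chromosome 18, 66458533 to 66465565), followed the pattern of *Bak1*, with 1 high sample. It had 6.93, 3.38 and 2.10 CPM in *Ythdc1*Δ/Δ samples KO176, KO177 and KO209, and 2.93, 3.53 and 1.94 CPM in *Ythdc1*+/+ samples WT178, WT180 and WT207. Sample KO176 stood above all others in both libraries (6.68 and 7.18 CPM), and the remaining samples overlapped. The difference on the log2 scale was 0.55 (SE 0.43, 95% interval -0.44 to 1.54, edgeR adjusted p = 0.725), and -0.03 without sample KO176.

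*Bmf*, whose product is released from the cytoskeleton under stress (chromosome 2, 118528757 to 118549687), had 8 to 30 counts per library. It had 0.734, 0.418 and 0.849 CPM in *Ythdc1*Δ/Δ samples KO176, KO177 and KO209, and 0.744, 0.809 and 0.811 CPM in *Ythdc1*+/+ samples WT178, WT180 and WT207. The 95% interval of its log2 fold change of -0.24 ran from -0.92 to 0.45 (SE 0.31, edgeR adjusted p = 0.846).

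The miRNAs miR-125b, miR-99b and let-7e were also followed in these HSCs by the study, and *Bak1*, *Bmf* and *Klf13*, a transcription factor gene, are known as targets of miR-125b. The mature sequences (RefSeq, GRCm38.p6) are shown with the seed, bases 2 to 8, in capitals, because the seed decides which 3′ UTRs can pair, and the first 2 share it:
miR-125b-5p: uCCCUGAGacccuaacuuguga
miR-125a-5p: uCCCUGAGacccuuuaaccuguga
miR-99b-5p: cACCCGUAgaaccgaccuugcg
let-7e-5p: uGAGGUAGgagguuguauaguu
The 7 bases CTCAGGG that pair with the miR-125 seed were searched on the sense strand of the longest 3′ UTR of each gene in the GENCODE M21 annotation of GRCm38. They stood once in *Bak1*, *Bcl2*, *Mcl1* and *Klf13*, 4 times in *Bmf*, and in none of the 6 other members, while 13.1% of 21022 UTRs held at least 1. Among UTRs of like length the share was 11.98% for *Bak1*, 22.5% for *Mcl1*, 29.1% for *Bmf* and 35.2% for *Bcl2*. The matches of the members are shown 5′ to 3′ with the 7 bases in capitals, each with the 15 bases before it and 1 after:
*Bak1*, minus strand, chr17:27020316-27020338: cttggcggctggactCTCAGGGa
*Bmf*, minus strand, chr2:118532085-118532107: cgcccaccgcatgggCTCAGGGa
*Bmf*, minus strand, chr2:118532044-118532066: caacttccggaagacCTCAGGGa
*Bmf*, minus strand, chr2:118531428-118531450: ctccccgctgcagtgCTCAGGGa
*Bmf*, minus strand, chr2:118530887-118530909: gccacaatcatttttCTCAGGGt
*Mcl1*, plus strand, chr3:95662966-95662988: ttgtcttacacgtctCTCAGGGa
*Bcl2*, minus strand, chr1:106540098-106540120: gatcttcagtgattcCTCAGGGc
A match of letters is a description and does not show that the miRNA binds there. The *Bak1* match lies in its last exon, which shares no bases with other genes. The members with a match had log2 fold changes of 0.69 (*Bak1*), 0.34 (*Bcl2*), -0.24 (*Bmf*) and -0.30 (*Mcl1*), none past the adjusted threshold in edgeR, and *Klf13* had 0.02 (edgeR adjusted p = 0.975). The match to let-7e, CTACCTC, stood once in *Bcl2l1* and once in *Klf13*, and in 9.02% of UTRs. The match to miR-99b, TACGGGT, was in no member and in 1.1% of UTRs.

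Compared per length, *Bax* stood above the other members and *Bmf* below them in every library. The levels are CPM per kilobase of exon, as mean ± SD over 3 samples. In *Ythdc1*+/+ the order was *Bax* (53.9 ± 0.888), *Bcl2* (13.6 ± 2.34), *Bcl2l1* (13.3 ± 1.57), *Bbc3* (12.5 ± 0.248), *Mcl1* (9.63 ± 2.04), *Bok* (5.45 ± 0.463), *Bcl2l11* (1.89 ± 0.148), *Pmaip1* (1.02 ± 0.293), *Bak1* (0.748 ± 0.123) and *Bmf* (0.150 ± 0.00725). *Bax* lay above 92.4% and *Bmf* above 12.4% of tested genes on this scale. The steps from *Bax* to *Bcl2*, from *Bok* to *Bcl2l11* and from *Bak1* to *Bmf* held in all 12 libraries. The levels of *Bcl2*, *Bcl2l1*, *Bbc3* and *Mcl1* were within their spread, since each neighbouring pair changed order in at least 1 of 6 samples, as did *Mcl1* and *Bok* and *Bcl2l11* and *Pmaip1*, and *Pmaip1* and *Bak1* changed order in 2 of 6. In *Ythdc1*Δ/Δ the order by mean differed in 1 place, with *Bok* (7.86 ± 1.53) beside *Mcl1* (7.83 ± 2.597) and ahead of it. *Bbc3* was at 8.97 ± 1.88 in *Ythdc1*Δ/Δ. These levels depend on the exon length assumed for each gene, which counts all annotated exons.

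**Figure D4:**
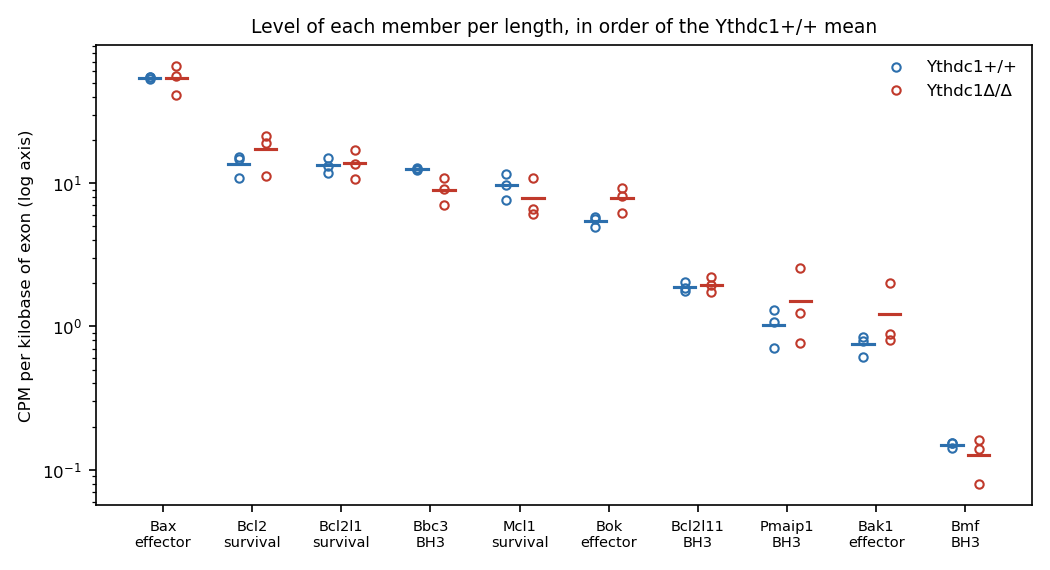
Level of each member in CPM per kilobase of exon (log y axis) in the 6 samples (circles) with the mean of 3 samples per genotype (lines), ordered by the *Ythdc1*+/+ mean. *Bax* lies near 54 in both genotypes, 3.97 times the next member in *Ythdc1*+/+, and *Bmf* near 0.1.

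Set side by side, the 3 survival members made up 34.5%, 36.0% and 30.1% of the summed per-length level of the 10 members in *Ythdc1*Δ/Δ samples KO176, KO177 and KO209, and 33.7%, 32.8% and 30.9% in *Ythdc1*+/+ samples WT178, WT180 and WT207. The ranges overlapped, with 33.6% ± 3.08 against 32.5% ± 1.43 (SD, n = 3 each). The effectors, mostly *Bax*, took 55.1% ± 1.28 against 53.6% ± 1.23. The BH3-only members took 9.01%, 10.05% and 14.97% in *Ythdc1*Δ/Δ and 13.8%, 13.7% and 14.2% in *Ythdc1*+/+ samples, in the same order. Samples KO176 and KO177 lay below the *Ythdc1*+/+ range and sample KO209 above it. These shares describe chosen members and carry no test.

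The other genes of the pathway, from lists written by hand, gave no calls in edgeR either. Of 56 listed genes 49 were tested, 30 with a higher and 19 with a lower mean in *Ythdc1*Δ/Δ, at a median log2 fold change of 0.06. EdgeR called 0 of them, 2 had an unadjusted p under 0.05, both lower, and DESeq2 called 1, at the backgrounds given above (9.48% of genes had an unadjusted p under 0.05 in edgeR in either direction). The 3 other survival genes tested all had lower means (median -0.13), led by *Bcl2l2*, the gene of BCL-W, at -0.15, with *Bcl2a1b* at -0.13 and *Bcl2a1d* at -0.03. The *Bcl2a1* copies are near identical, so reads may be split between them, and both were under 1 CPM in every library. Of the other BH3-only genes, *Bid*, which links death receptors to mitochondria, had 149 ± 39.9 against 138 ± 22.6 CPM (log2 fold change 0.12). *Bad* had -0.07 and *Bik*, under 1 CPM in every library, 0.03. The 3 remaining BCL2-like genes tested had higher means, with *Bcl2l13* at 0.24, *Bcl2l14* at 0.22 and *Bcl2l12* at 0.06.

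Downstream of the pores, 13 of 15 tested genes of the apoptosome and caspase list had a higher mean in *Ythdc1*Δ/Δ and 0 passed the test. Their median difference was 0.13 on the log2 scale. Of all 18234 tested genes, 8918 had a higher mean. The list also holds genes of the inhibitor of apoptosis family, which act against cell death. These were *Xiap* (log2 fold change 0.13), *Birc2* (-0.07), *Birc3* (0.04) and *Birc6* (0.10), so the count does not describe death genes alone. *Cycs*, the gene of cytochrome c, had 475, 334 and 245 CPM in *Ythdc1*Δ/Δ samples KO176, KO177 and KO209 and 311, 289 and 249 CPM in *Ythdc1*+/+ samples WT178, WT180 and WT207. *Apaf1*, the scaffold that cytochrome c activates, had a log2 fold change of 0.23 and *Htra2* 0.17. Of 9 tested death receptor genes, 3 had higher and 6 lower means. *Fas*, a death receptor, had 1.30, 1.96 and 1.70 CPM in *Ythdc1*Δ/Δ samples and 2.14, 3.18 and 2.16 CPM in *Ythdc1*+/+ samples, with a log2 fold change of -0.59 that did not pass the adjustment (edgeR adjusted p = 0.497). The adaptor gene *Fadd* had 0.15, the ligand gene *Tnfsf10* -0.16 and the kinase gene *Ripk1* 0.10.

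Of 16 tested regulators of the members, 9 had higher and 7 lower means. *Jun*, an AP-1 transcription factor known to regulate BH3-only genes, had 295, 596 and 500 CPM in *Ythdc1*Δ/Δ samples KO176, KO177 and KO209 and 1192, 737 and 731 CPM in *Ythdc1*+/+ samples WT178, WT180 and WT207. Its *Ythdc1*Δ/Δ libraries all lay below its *Ythdc1*+/+ libraries, as did those of 1.9% of tested genes. The log2 fold change of *Jun* was -0.94 (SE 0.29, edgeR adjusted p = 0.357), and it is the pathway gene that DESeq2 called. *Foxo1*, another transcription factor of this kind, had -0.36 (edgeR adjusted p = 0.545). *Mdm2*, which restrains p53 and is its target, had 0.15, and *Vdac2*, a mitochondrial channel gene known to bind BAK, had 0.19.

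The 19 alternatives per member moved the values as the plot of all of them shows. *Bok* stayed above 0 and *Bbc3* below 0 in each of them, as *Bcl2* and *Bak1* stayed above 0, and the other 6 members changed sign in at least 1.

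**Figure D5:**
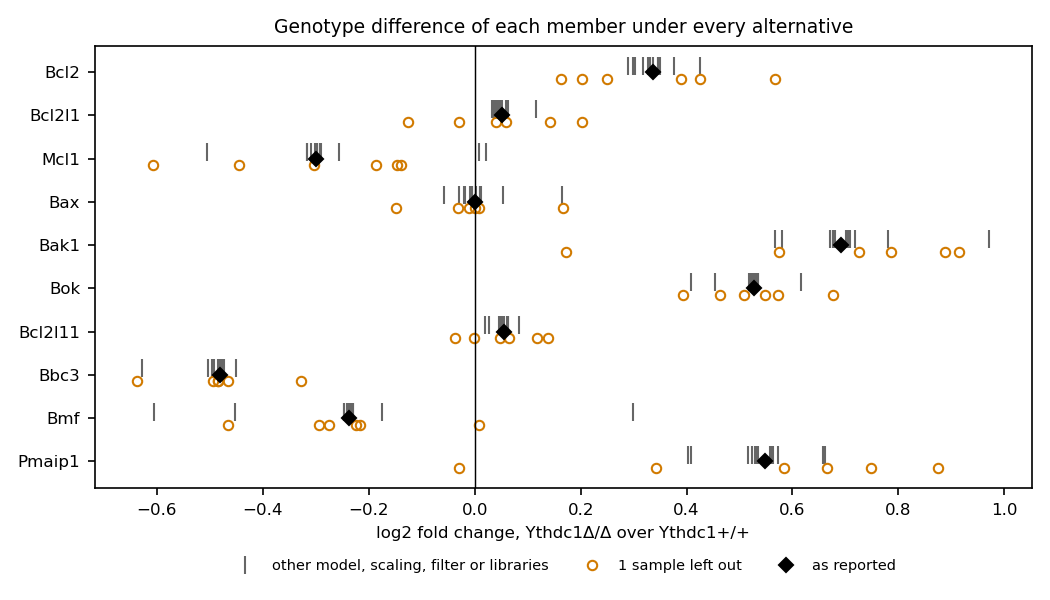
Log2 fold change of each member (x axis) as reported (diamonds), with 1 sample left out (circles) and under the other 13 alternatives (ticks). *Bok* lies between 0.39 and 0.68 and *Bbc3* between -0.64 and -0.33, while *Pmaip1* runs from -0.03 to 0.88 and *Bak1* from 0.17 to 0.97.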

How the data were processed

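Sorted HSCs of 6 numbered samples were sequenced in 2 libraries each. Per the file headers, the deposited values are raw counts, for which the authors ran featureCounts 2.0.1 over read pairs on GENCODE vM23 genes of mm10, without strand. The file header names no aligner. The deposited counts were not normalized, and all 12 columns were matched to labels by title.

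The counts of the 2 libraries of a number were summed and tested as 3 against 3 samples with edgeR 4.0.16 (quasi-likelihood, robust) in R 4.3.3, after a filter (minimum count 10, minimum total 15) and TMM scaling, with Benjamini-Hochberg adjustment over 18234 genes and a threshold of 0.05. Fold changes are *Ythdc1*Δ/Δ over *Ythdc1*+/+. Library CPM use the TMM factor of their sample. Levels between genes were divided by exon length. Alternatives used limma 3.58.1 and DESeq2 1.42.0. The steps were tested on simulated data. The members, gene lists and tests were chosen with earlier results of these data known. The rule named all members, up to 4 genes per pathway list with the smallest p, genes sharing member exons, and *Ythdc1*. *Xiap* and the *Birc* genes were named outside it. *Ddit3* has more than 1 identifier and was left out. Protein sequences were not used here. For 1 gene that the rule named, values are not reported here.

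Marker lists also covered progenitors (3 of 4 genes higher in *Ythdc1*Δ/Δ), the erythroid and megakaryocyte lineage (4 of 7 tested higher) and T and NK cells (1 of 5 tested higher), each with 0 genes called.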

Additional observations from a re-analysis of the deposited data

Results flagged for a closer look

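The level of *Mcl1* in library 1 of *Ythdc1*Δ/Δ sample KO177, 53.3 CPM, stood far from the other 5 *Ythdc1*Δ/Δ libraries, at 19.5 to 24.5 CPM. Its gap to the nearest library was 0.852 of the range of the 6 libraries, above the limit of 0.625 (Dixon's 95% critical value). It was the 1 flag among 20 groups of 6 libraries examined, 10 members in each genotype, and chance flags about 1 in 20 such groups. The 6 libraries are pairs from 3 samples and are not independent.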

How the results depend on the processing

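No member was called except with the 12 libraries as separate samples and with the digit after the number as a replicate block, where 2 were, *Bok* and *Bbc3*; both fits count libraries of a sample as independent. The pathway lists had 1 gene called in those fits and in DESeq2. No paired analysis was possible because the genotypes share no sample number. Over all genes, 25 were called as reported, 751 with separate libraries, 717 with the block, 131 with voomLmFit, 5 and 8 from library 1 or 2 alone, 16 with upper quartile scaling, 217 with DESeq2, 15 with the legacy option of edgeR, 73 without a filter, 13 at a minimum count of 30, 85 with a term for the range of numbers, and 1 (without sample WT178) to 81 (without sample KO209) with a sample left out. The direction reversed for *Mcl1* from library 2 alone (0.021) and in samples KO176 to WT180 (0.0080), and for *Bmf* from library 2 alone (0.30). *Bax* had -0.0049 with separate libraries, -0.0053 with the block, -0.029 with voomLmFit, -0.058 from library 1 alone, -0.018 with upper quartile scaling, -0.0089 at the minimum count of 30 and -0.020 with the term. With a sample left out, values ran from 0.16 to 0.57 for *Bcl2*, -0.61 (without KO177) to -0.14 for *Mcl1*, 0.17 to 0.91 for *Bak1*, -0.13 to 0.20 for *Bcl2l1*, -0.15 to 0.17 for *Bax*, -0.037 to 0.14 for *Bcl2l11*, -0.47 to 0.0076 for *Bmf* and -0.030 to 0.88 for *Pmaip1*. Apart from fewer samples or libraries, the cause was not tested. Without division by length, 4 of 10 members kept their rank in *Ythdc1*+/+, and survival members took 62.9% (*Ythdc1*Δ/Δ) and 60.4% (*Ythdc1*+/+) of the members' counts, since *Bcl2* is long. No correction of *Bak1* for shared exons could be made from counts per gene. *Bmf* had the fewest counts, 8 to 30 per library.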

Other observations

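The difference within a sample between *Bok* and *Bbc3*, the effector and BH3-only genes with opposite values, was computed after both had been seen and carries no test. On the log2 scale of CPM per kilobase, *Bok* over *Bbc3* was -0.18, -0.16 and -0.22 in *Ythdc1*Δ/Δ samples KO176, KO177 and KO209, and -1.32, -1.11 and -1.19 in *Ythdc1*+/+ samples WT178, WT180 and WT207. The genes varied together within *Ythdc1*Δ/Δ, where sample KO176 was the lowest and sample KO209 the highest for both.

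*Bax* over *Bcl2* was 1.62, 1.56 and 1.87 in *Ythdc1*Δ/Δ and 1.80, 1.89 and 2.32 in *Ythdc1*+/+ samples on the same scale and in the same order, and these values overlap.

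The SD between samples of a genotype was larger for *Bcl2* (0.39 on the log2 scale) than for 96.6% of 1669 genes within 1.5-fold of its level, and its SD between libraries of a sample was 0.09.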
